A study of Mus musculus with 4 samples.

Results

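The genes described here are 36 members of glycolysis and of the pentose phosphate pathway, chosen by name among the 37583 features of the deposited tables: glucose and lactate transporters, the glycolytic enzymes and their isozymes, the regulatory kinases of phosphofructokinase and pyruvate dehydrogenase, and the enzymes of the pentose phosphate pathway. All 36 were found once in each table, and 33 had at least 20 reads in each inhibitor-control pair. The study compared RNA from developing Th17 cells with and without an inhibitor of the protein kinase CK2. Naive CD4+ T cells from the spleen of C57BL/6 mice were activated with anti-CD3 and anti-CD28; the culture, named aTh17 in the labels, also held the cytokines IL-1β, IL-6, IL-23 and blocking antibodies to IFN-γ and IL-4. A culture with 1.5 µM DMAT and another with 1 µM CX4945, both CK2 inhibitors and both present for 24 h, each have their own control without inhibitor by title; whether the controls received a solvent is not given in the sources used here. All 4 groups share strain, tissue and stimulation, and each holds 1 library.

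Glycolysis converts glucose to pyruvate. Hexokinase and phosphofructokinase commit the sugar at the expense of ATP, the triose phosphate enzymes then recover ATP, and lactate dehydrogenase regenerates the oxidised cofactor so that the flow can go on. The pentose phosphate pathway branches off at glucose-phosphate, makes NADPH in its oxidative branch, and interconverts sugars for nucleotide synthesis in its non-oxidative branch. Activated T cells raise glucose uptake and lactate output, and Th17 cells are known for their reliance on glycolysis, with HIF-1 and MYC as activators of many of these genes.

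The libraries held between 2056635 and 2772525 total exon reads, and the 4 cultures expressed T cell genes such as Cd4, with 546 to 699 reads, and Cd5, with 1697 to 2286. Defining markers of other spleen cells were at or near 0: Cd79b and Ms4a1 of B cells, Lyz2 and Itgam of myeloid cells, Ncr1 of NK cells and Hbb-b1 of red cells had no read in any library. The control libraries differ between the experiments as well, so the control for CX4945 set against the control for DMAT is given as a background of the same measure. With RNA from whole cultures, fewer cells of a kind and less RNA per cell cannot be told apart. The labels do not say whether the pairs come from separate animals, so p-values here reflect how far these libraries vary, possibly for technical reasons alone. The fit behind them treats both inhibitors as a single arm, so a difference between the compounds counts as variation too.

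Across the members, small decreases were more frequent than small increases against each inhibitor's own control. Levels are given as CPM, reads scaled to library size after TMM normalisation, and ratios as log2 ratios with a prior count of 2. With DMAT 19 of 33 members (57.6%) were lower than in the control, where 49.2% of all genes were lower. With CX4945 22 of 33 (66.7%) were lower, against 49.4% of all genes. Lower with both inhibitors were 14 of 33 (42.4%; 25.7% of all genes) and higher with both 6 (26.9% of all genes). The median log2 ratio of the members was -0.07 with DMAT and -0.17 with CX4945, while that of all genes was 0.01 and 0.00. Between the controls 20 of 33 members were lower in the one for CX4945 (60.6%, against 49.8% of all genes), with a median of -0.06. The excess of lower members with DMAT was therefore no larger than that between the controls. For DMAT it also rested on the control: set against the control of the other experiment 13 of 33 members were lower with DMAT and the median was 0.06, and against the mean of both controls 16 were lower and the median was 0.01. With CX4945 25 of 33 were lower in either case, with medians of -0.24 and -0.20.

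Few members differed by much. At least 1.25-fold lower were 1 of 33 members with DMAT (Hk2; 13.0% of all genes) and 7 of 33 with CX4945 (21.2%, against 13.0% of all genes), namely Hk2, Pfkl, Pfkm, Pfkfb3, Tpi1, Eno1 and Slc16a3. At least 1.25-fold higher were 6 of 33 with DMAT (18.2%, against 13.7%), namely Pfkfb3, Pfkfb4, Pgm2, Eno3, Ldhb and Pgls, and 2 of 33 with CX4945 (6.06%, against 12.6%), Pfkfb4 and Eno2. At 2-fold, 0 members were higher in either pair, where 1.09% of all genes with DMAT and 0.887% with CX4945 were. Slc16a3 with CX4945 was the single member 2-fold lower (0.919% of all genes), and 0 members were 2-fold lower with DMAT (1.27%). Hk2 was the single member at least 1.25-fold lower with both (2.75% of all genes). Between the controls 6 of 33 members were at least 1.25-fold lower in the one for CX4945 (18.2%, against 14.0%) and 1 was higher (12.9%), and 1, Slc16a3, was 2-fold lower (1.28%) and 0 were 2-fold higher (0.983%). In these ratios each arm is 1 library, so they have no replicate check. Among genes with at least 200 reads in the pair, 5 of 25 members (20%) were at least 1.25-fold lower with CX4945, against 6.14% of all such genes, 1 of 27 (3.7%) with DMAT, against 6.93%, and 2 of 26 (7.69%) between the controls, against 6.57%. In these deeper genes the counting interval of the ratio lay below 1 in 12 of 25 members with CX4945 (48%, against 9.71% of all such genes), in 7 of 27 with DMAT (25.9%, against 12.0%) and in 8 of 26 between the controls (30.8%, against 11.3%). A counting interval narrows with depth, and some members are very abundant, such as Pkm2 with 5799 to 9364 reads. The members and all such genes were not matched for depth, so these shares are not like for like.

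The members together took up a smaller share of the reads with each inhibitor than in its own control. They held 1.6% of all exon reads in the control for DMAT (exact 95% binomial interval 1.58 to 1.61) and 1.48% with DMAT (1.47 to 1.5). In the CX4945 pair they held 1.47% in the control (1.45 to 1.49) and 1.25% with the inhibitor (1.24 to 1.27). The share was thus 1.17-fold lower with CX4945 and 1.08-fold lower with DMAT, and the 2 controls differed by 1.09-fold (1.07 to 1.1), as much as DMAT and its control. The log2 ratio of the share with DMAT, -0.11, turned to 0.01 against the other experiment's control and to 0.02 with equal weight for each member, so its direction did not hold; with CX4945 it stayed negative, from -0.35 to -0.15 over the alternatives tried. For the 7 pentose phosphate genes the share was 0.123% and 0.133% in the DMAT pair, a ratio of 1.08 (1.03 to 1.13), and 0.113% and 0.111% in the CX4945 pair, a ratio of 0.986 (0.931 to 1.04). Between the controls the share of these 7 genes differed about as much as in the DMAT pair. The control for CX4945 was at a ratio of 0.918 (0.872 to 0.966) to that for DMAT. Such intervals reflect the counting of reads alone. PCR copies of 1 molecule could not be told from separate molecules, so the intervals may be too narrow even for that. No test of the difference between the branches was made.

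**Figure D1:**
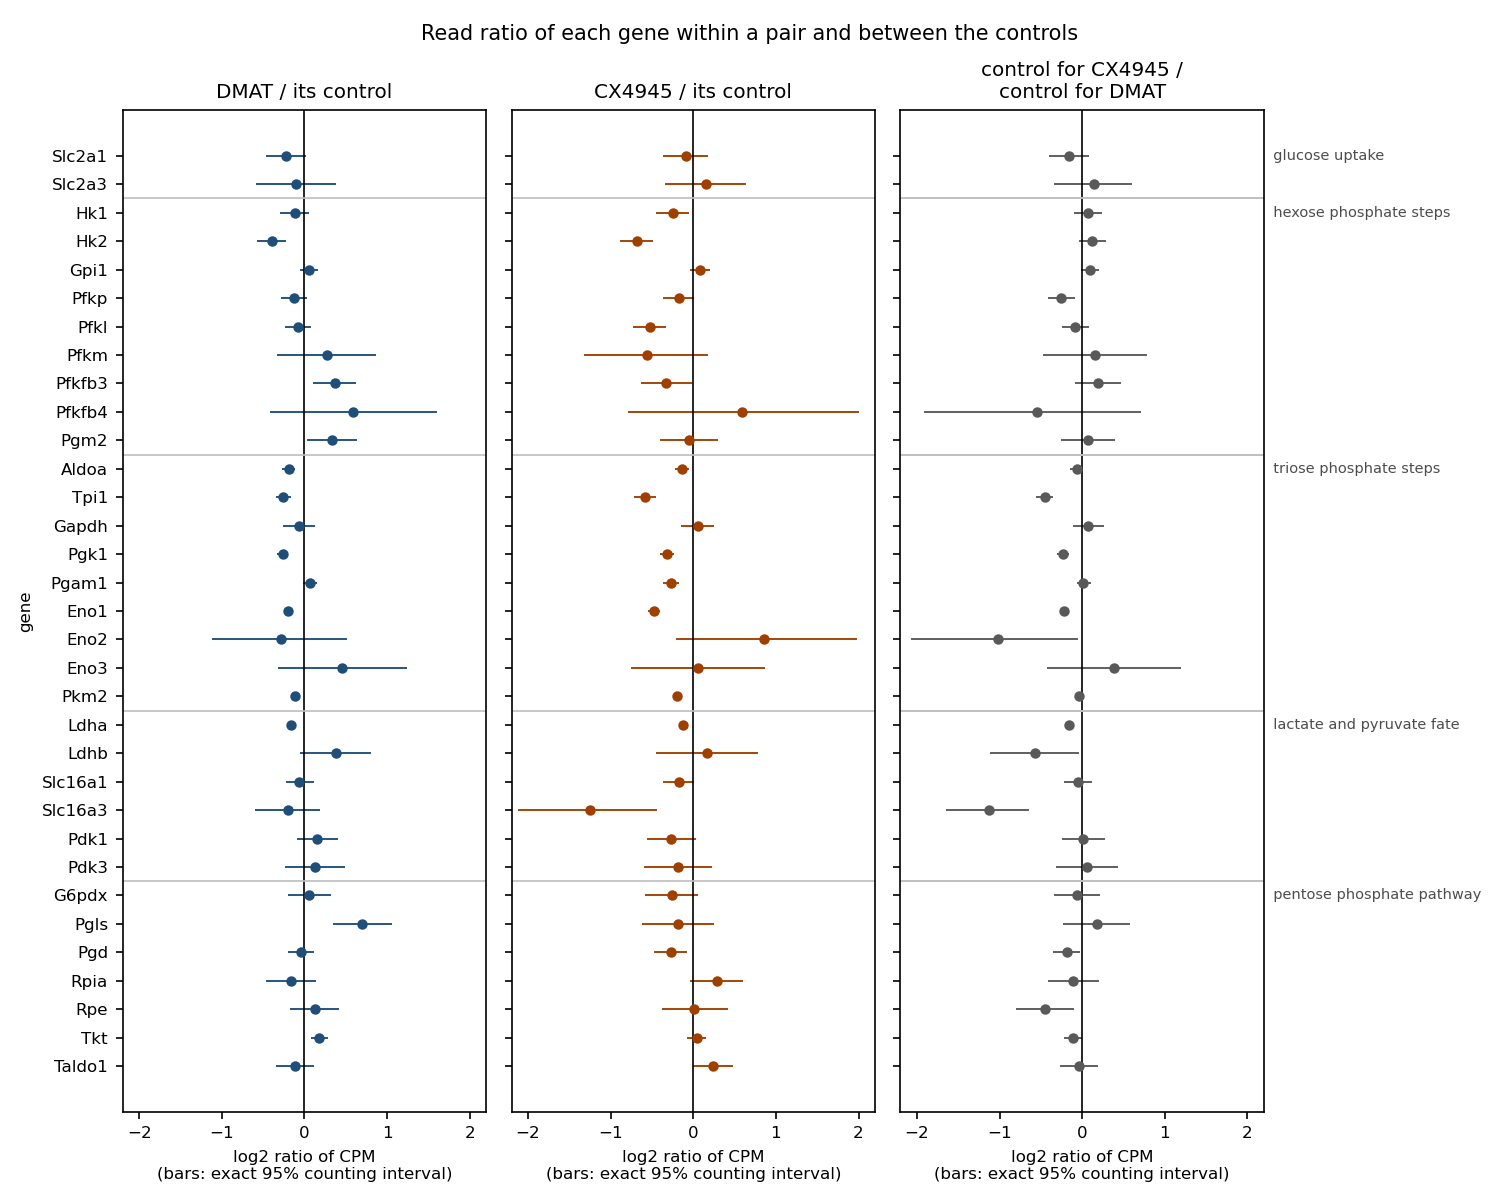
Log2 ratio of CPM, here without a prior count, for the 33 members with at least 20 reads in each pair, with the exact 95% counting interval as bars: DMAT over its control, CX4945 over its control, and the control for CX4945 over that for DMAT. Hk2 and Tpi1 are among the 14 members that lie below 0 in both inhibitor panels. Tpi1, Pgk1, Eno1 and Slc16a3 are among the 20 that lie below 0 between the controls.

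A joint fit of both experiments kept the pair as a block (edgeR quasi-likelihood, Benjamini-Hochberg adjustment over 9629 genes). In it 2 of 33 members fell, Hk2 and Tpi1, and 0 rose. Over all genes 0.384% fell and 0.177% rose. A further 5 members were lower at an unadjusted p under 0.05 (Eno1, Pgk1, Pfkl, Slc16a3 and Pkm2), so that 7 of 33 (21.2%) lay there, against 4.13% of all genes, and 0 members were higher at that level, against 3.09%. In place of these 7 members, 4 were lower at that level with DESeq2 and 2 without the block. The other alternative fits of all libraries gave 6 to 9. The members and all genes were not matched for depth here either. The joint fit has 1 residual degree of freedom per gene. With both inhibitors as a single arm, it holds how far the inhibitor-control difference varies between the pairs. The p-values also lean on 19.7 prior degrees of freedom, borrowed from the spread over all genes. Hk2 and Tpi1 lost their calls without the block and with DESeq2, and these fits called 0 members.

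**Figure D2:**
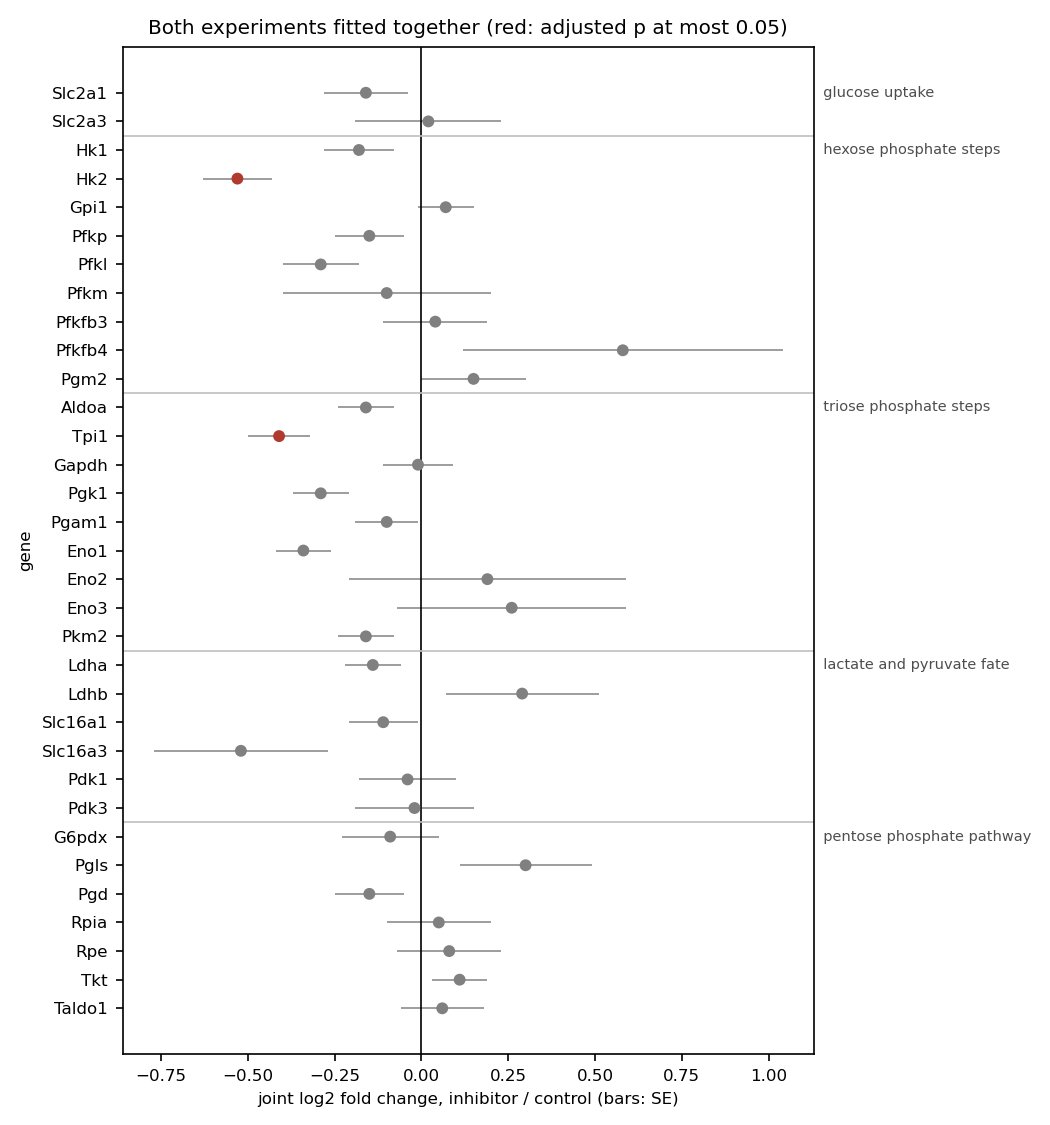
Joint log2 fold change of inhibitor over control for the 33 members, with the SE of the fit as bars, ordered by step. Hk2 at -0.53 and Tpi1 at -0.41 are drawn in red, with an adjusted p of at most 0.05, and the others are grey.

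Hexokinase 2 was the member with the clearest decrease. Hk2 (mm9 chromosome 6, 82675019 to 82724448) encodes the inducible hexokinase, which phosphorylates glucose on entry and binds to mitochondria. It stood at 235 CPM in the control for DMAT, 179 with DMAT, 256 in the control for CX4945 and 160 with CX4945. Both inhibitor libraries were thus below both controls. The CX4945 library was 1.61-fold below its control (95% counting interval 1.4 to 1.85) and the DMAT library 1.31-fold (1.16 to 1.48). The joint log2 fold change was -0.53 ± 0.10 (SE; edgeR quasi-likelihood, adjusted p = 0.0146). Without the block the value was -0.54 (edgeR quasi-likelihood, adjusted p = 0.999), and over all 11 alternative fits it lay between -0.62 and -0.46. Of the 7 alternative fits that kept all libraries, 5 called Hk2 (edgeR quasi-likelihood, adjusted p from 7.63e-05 to 0.0198). The call was lost without the block, with DESeq2 and in each fit that left out a library, which also had no block. Of its reads 100% were unique. Hk1, the constitutive hexokinase, had 213, 196, 223 and 188 CPM in the same order (joint log2 fold change -0.18 ± 0.10, adjusted p = 0.754), and Hk3 had 2 reads in the CX4945 library and 0 in the others. Hk1 too was below its control with CX4945, by 1.19-fold (1.04 to 1.36), while with DMAT its interval included 1. Per exon length, Hk2 was at 1.58 times the level of Hk1 in the control for DMAT and 1.3 times with DMAT, and at 1.64 times and 1.22 times in the CX4945 pair. The ratio of Hk2 to Hk1 reads, which needs no scaling of the libraries, was 0.827 times its control value with DMAT (0.696 to 0.982), 0.741 times with CX4945 (0.61 to 0.899) and 1.04 times between the controls (0.882 to 1.23). Of 6 such pairs of related members, chosen after values were seen and with intervals not adjusted for their number, Hk2 and Hk1 were the pair whose interval lay on the same side of 1 with both inhibitors.

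Tpi1, triosephosphate isomerase, which makes both products of the split sugar available to the later steps, lies on the same chromosome (124760604 to 124764314). It stood at 791 CPM in the control for DMAT and 663 with DMAT, and at 577 in the control for CX4945 and 385 with CX4945. Each inhibitor library was below its own control, but DMAT stood above the control of the other experiment. The CX4945 library was 1.5-fold below its control (1.37 to 1.64) and the DMAT library 1.19-fold (1.12 to 1.27), and the log2 ratio between the controls was -0.45. The joint log2 fold change was -0.41 ± 0.09 (edgeR quasi-likelihood, adjusted p = 0.0363; 79.7% of its reads were unique, and with unique reads the adjusted p was 0.00185). Without the block it was -0.38 (adjusted p = 0.999). In fits without the block it was -0.14 when the control for DMAT was left out, -0.05 without the CX4945 library, -0.60 without the control for CX4945 and -0.83 without the DMAT library, so its size rests on which libraries are compared.

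The 300 bases around the transcription starts of Hk2 and Tpi1 are shown because these are the members that fell, beside Gpi1, whose product acts between their steps and which did not pass the test. The windows are from RefSeq (GRCm38.p6), 250 bases before to 50 after the start, written 5′ to 3′ on the strand of the gene, minus in each case: chr6:82774405-82774704 for Hk2, chr6:124814109-124814408 for Tpi1 and chr7:34230287-34230586 for Gpi1. Capitals mark the letters ACGTG or GCGTG, the core of the hypoxia response element that HIF-1 binds, on either strand.
Hk2: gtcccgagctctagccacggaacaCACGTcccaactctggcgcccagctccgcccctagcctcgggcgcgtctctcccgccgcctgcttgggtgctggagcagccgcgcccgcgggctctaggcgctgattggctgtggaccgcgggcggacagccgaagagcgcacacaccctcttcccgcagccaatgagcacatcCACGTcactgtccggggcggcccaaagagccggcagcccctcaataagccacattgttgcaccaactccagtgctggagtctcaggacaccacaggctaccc
Tpi1: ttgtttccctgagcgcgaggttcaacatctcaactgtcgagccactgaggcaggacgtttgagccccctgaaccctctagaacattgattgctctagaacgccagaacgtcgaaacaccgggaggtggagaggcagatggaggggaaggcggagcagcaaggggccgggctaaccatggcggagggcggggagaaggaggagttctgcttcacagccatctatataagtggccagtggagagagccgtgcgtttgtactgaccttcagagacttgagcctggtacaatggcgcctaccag
Gpi1: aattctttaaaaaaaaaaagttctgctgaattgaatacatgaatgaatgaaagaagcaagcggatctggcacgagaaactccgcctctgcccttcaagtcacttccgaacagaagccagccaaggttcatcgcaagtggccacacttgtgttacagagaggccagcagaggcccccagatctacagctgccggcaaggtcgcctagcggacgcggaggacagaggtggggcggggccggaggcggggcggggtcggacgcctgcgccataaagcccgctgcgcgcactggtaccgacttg
Hk2 held the letters at 2 places, both ACGTG on the opposite strand, and Tpi1 and Gpi1 at 0. A window was found for 35 of the 36 members by symbol or synonym, with Slc2a3 as the exception. At least 1 match was present in 31 of the 35 members (88.6%), in 70.6% of 7598 genes of the joint fit that had a window and in 46.7% of all 27025 genes. Of the 35 members, Hk3, Aldoc and Pdk2 did not enter the joint fit, and each held ACGTG, so these sets are not like for like. ACGTG was present in 54.3% of the members and 30.9% of the genes of the joint fit, and GCGTG in 65.7% and 59%. Some members have several windows; among genes with 1 window the share with a match was 83.3% for the members and 67.9% for the genes of the joint fit. ACGTG lies within CACGTG, an E-box, which was present in 14.3% of the members and 12.6% of the genes of the joint fit, and among genes with 1 window in 4.17% and 11.1%. A match is a description of the letters and not a site.

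Glucose uptake genes differed little. Slc2a1 encodes GLUT1, the main glucose transporter of activated T cells, and had 122 CPM in the control for DMAT, 104 with DMAT, 109 in the control for CX4945 and 102 with CX4945. The intervals of its ratio included 1 in both pairs (0.725 to 1.01 with DMAT and 0.776 to 1.13 with CX4945), and it did not pass the joint test (-0.16 ± 0.12, adjusted p = 0.879). Slc2a3, which encodes the high-affinity transporter GLUT3, stood at 29.5, 27.5, 32.4 and 35.9 CPM (adjusted p = 0.995).

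Phosphofructokinase is the main control point of glycolysis. Its liver-type subunit gene Pfkl had 255 CPM in the control for DMAT, 242 with DMAT, 240 in the control for CX4945 and 167 with CX4945. The CX4945 library stood apart from the other 3, at 1.44-fold below its control (1.26 to 1.66), while with DMAT the interval included 1 (1.05-fold lower, 0.945 to 1.18); the joint value of -0.29 ± 0.11 did not pass (adjusted p = 0.461). The platelet-type gene Pfkp had 268, 245, 225 and 199 CPM and differed more between the controls (log2 ratio -0.25, interval of the ratio 0.748 to 0.94) than within a pair (-0.13 and -0.17, with intervals that included 1). The muscle-type gene Pfkm had 16.9, 20.4, 18.8 and 12.8 CPM, from 26 to 52 reads. Per exon length Pfkl was at 2.04, 2.11, 2.29 and 1.79 times the level of Pfkp, and this ratio of reads was 0.782 times its control value with CX4945 (0.645 to 0.948) and 1.04 times with DMAT (0.889 to 1.21).

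Pfkfb3 and Pfkfb4 encode the bifunctional enzymes that make and remove the main allosteric activator of phosphofructokinase. Pfkfb3 was the member whose intervals excluded 1 in opposite directions: it had 82.1 CPM in the control for DMAT and 106 with DMAT, a ratio of 1.29 (1.07 to 1.54), and 93.7 CPM in the control for CX4945 and 74.7 with CX4945, a ratio of 0.797 (0.643 to 0.986). Its joint value was 0.04 ± 0.15 (adjusted p = 0.982). Pfkfb4 had 16, 22, 9 and 12 reads, and its intervals reached from 0.579 to 4.02 with CX4945 and from 0.752 to 3.05 with DMAT, so a change was not detectable at this depth. It lay just inside the minimum of 20 reads in a pair. Of the members below the minimum, Aldoc came closest, with 7 and 10 reads in the DMAT pair, and 8 and 2 in the CX4945 pair. Pdk2 had 2, 4, 3 and 5 reads.

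Glucose phosphate isomerase and phosphoglucomutase did not pass the joint test. Gpi1, which turns glucose-phosphate into fructose-phosphate, had 515, 535, 550 and 582 CPM, slightly higher in each inhibitor library, with intervals that included 1 (0.964 to 1.12 and 0.976 to 1.15). Its joint value of 0.07 ± 0.08 did not pass (adjusted p = 0.942; 65.8% unique). Pgm2 links glycogen to glucose-phosphate; the feature lies on chromosome 4 and is called Pgm1 in the RefSeq table for GRCm38.p6. It had 61.9, 78.2, 65.2 and 62.9 CPM, a ratio of 1.26 (1.02 to 1.56) with DMAT and 0.964 (0.755 to 1.23) with CX4945.

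**Figure D3:**
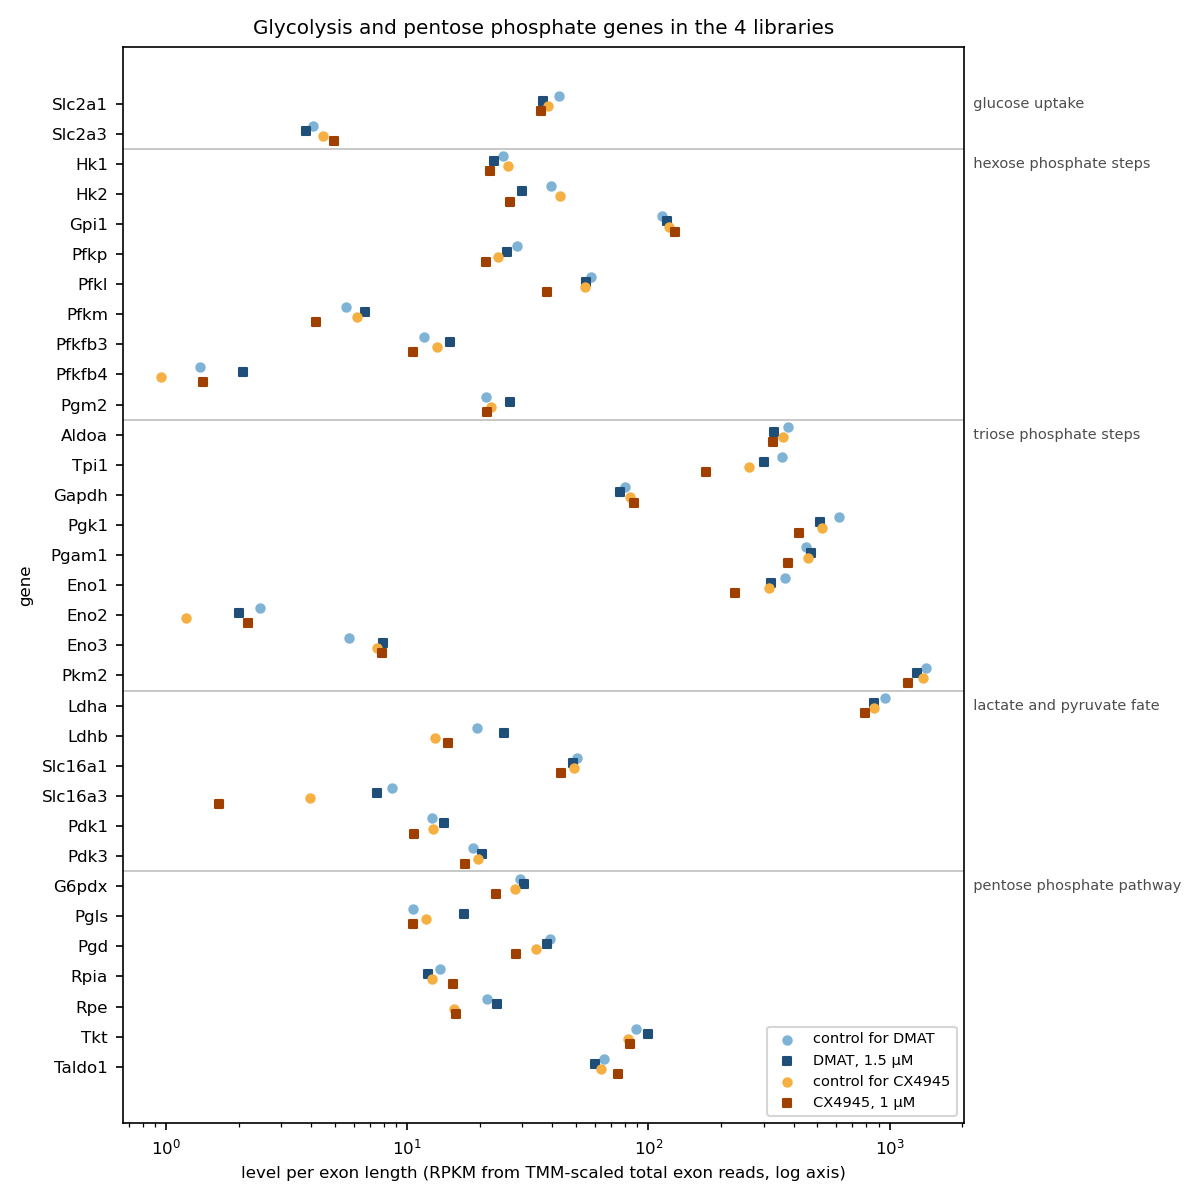
Level per exon length (RPKM, log axis) of the 33 members in the 4 libraries, grouped by step; circles are controls and squares inhibitor libraries, with 1 library per group and no error bar. Pkm2 and Ldha are at the top with 790 to 1410 RPKM, and the points of most genes lie close together.

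The triose phosphate steps include several of the most abundant members. Of the 9 genes with enough reads, 7 were lower with DMAT and 6 with CX4945, and 5 were lower with both, where 49.2%, 49.4% and 25.7% of all genes were. Between the controls 6 of the 9 were lower as well, as many as with CX4945. The median log2 ratio was -0.19 with DMAT, -0.20 with CX4945 and -0.06 between the controls. Eno1 encodes the main enolase, which forms phosphoenolpyruvate. It had 1980 CPM in the control for DMAT, 1728 with DMAT, 1705 in the control for CX4945 and 1224 with CX4945. DMAT and the other experiment's control were at nearly the same level, and CX4945 was below all others. Its joint value was -0.34 ± 0.08 and did not pass (edgeR quasi-likelihood, adjusted p = 0.0764); in 6 of 11 alternative fits it did, among them the one with unique reads (adjusted p = 0.0344), and 17.5% of its reads were unique.

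Pgk1, phosphoglycerate kinase, the first step that returns ATP, had 1385, 1153, 1181 and 948 CPM. The intervals of its ratio lay below 1 in both pairs, from 1.17 to 1.32-fold below the control for CX4945 and from 1.14 to 1.26-fold below it for DMAT, and the control for CX4945 was already as low as the DMAT library. The joint value of -0.29 ± 0.08 did not pass (adjusted p = 0.123, with 25.7% of reads unique). Aldoa, the aldolase that splits the hexose, had 1040, 912, 996 and 906 CPM, so both inhibitor libraries were below both controls by 1.14-fold with DMAT (1.08 to 1.2) and 1.1-fold with CX4945 (1.03 to 1.17). Its joint value was -0.16 ± 0.08 (adjusted p = 0.699).

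Pkm2, the files' name for the pyruvate kinase gene Pkm, whose alternative transcripts share this count, had 3372, 3115, 3277 and 2848 CPM. Both inhibitor libraries were below both controls, by 1.08-fold with DMAT (1.05 to 1.12) and 1.15-fold with CX4945 (1.11 to 1.19), and the joint value of -0.16 ± 0.08 did not pass (adjusted p = 0.684). Pgam1, phosphoglycerate mutase, had 826, 866, 838 and 696 CPM, lower with CX4945 (1.2-fold, 1.12 to 1.29) and not with DMAT, but 13.9% of its reads were unique. Gapdh, often used as a reference gene, had 180, 171, 189 and 196 CPM and a joint value of -0.01 ± 0.10 (adjusted p = 0.996).

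Several of these genes have processed copies elsewhere in the mouse genome, and total exon reads include reads that are not unique. Gapdh stood at 76 to 87.2 RPKM, far below Pgk1 at 422 to 617 RPKM, which act in neighbouring steps, and 45.1% of its reads were unique; how reads with many matches were treated is not given in the sources used here. In unique reads the log2 ratio of Gapdh was -0.18 with DMAT and 0.09 with CX4945, against -0.07 and 0.06 in total reads. The minor isozymes Eno2 and Eno3 had between 13 and 34 reads per library and intervals that included 1 with each inhibitor. Between the controls Eno2 was lower in the one for CX4945, at a ratio of 0.494 (0.238 to 0.967).

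Lactate dehydrogenase A and the lactate exporters form the outlet of the pathway. Ldha, which reduces pyruvate to lactate, had 2863, 2557, 2563 and 2356 CPM, 1.09-fold below the control with CX4945 (1.05 to 1.13) and 1.12-fold below it with DMAT (1.08 to 1.16), and its log2 ratio between the controls (-0.16) equalled that with DMAT. The joint value was -0.14 ± 0.08 (adjusted p = 0.731). Ldhb, whose subunit favours the reverse reaction, had 30.6, 39.7, 20.6 and 23.1 CPM; per exon length it was at 0.0203 times the level of Ldha in the control for DMAT and 0.0295 times with DMAT, so that the ratio was 1.45 times its control value (1.07 to 1.96), against 1.22 times with CX4945 (0.796 to 1.87) and 0.751 times between the controls (0.513 to 1.09). Ldhb by itself was at a ratio of 0.672 (0.46 to 0.971) between the controls.

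Slc16a3 was the member with a 2-fold difference, in the CX4945 pair and between the controls. It encodes MCT4, a lactate exporter that HIF-1 is known to induce. It had 128 reads in the control for DMAT, 102 with DMAT, 48 in the control for CX4945 and 18 with CX4945, or 46.1, 40.1, 21 and 8.84 CPM. The controls differed about as much as the CX4945 pair: the log2 ratio was -1.10 between the controls, -1.18 with CX4945 (2.38-fold lower, 1.36 to 4.34) and -0.20 with DMAT (1.15-fold lower, 0.88 to 1.51). The joint value of -0.52 ± 0.25 did not pass (adjusted p = 0.682). In fits without the block it moved from -1.94 when the DMAT library was left out, which passed (adjusted p = 0.0137), up to 0.25. Slc16a1, which encodes the broader monocarboxylate transporter MCT1, stayed between 193 and 224 CPM in all libraries (adjusted p = 0.896).

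The pyruvate dehydrogenase kinases, which keep pyruvate out of the mitochondrial cycle, did not pass. Pdk1, a known HIF-1 target, had 99, 110, 99.8 and 83 CPM, so it was on opposite sides of the control in the pairs, with intervals that included 1 (0.94 to 1.32 and 0.678 to 1.02). Pdk3 had 48.3, 52.6, 50.3 and 44.2 CPM.

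**Figure D4:**
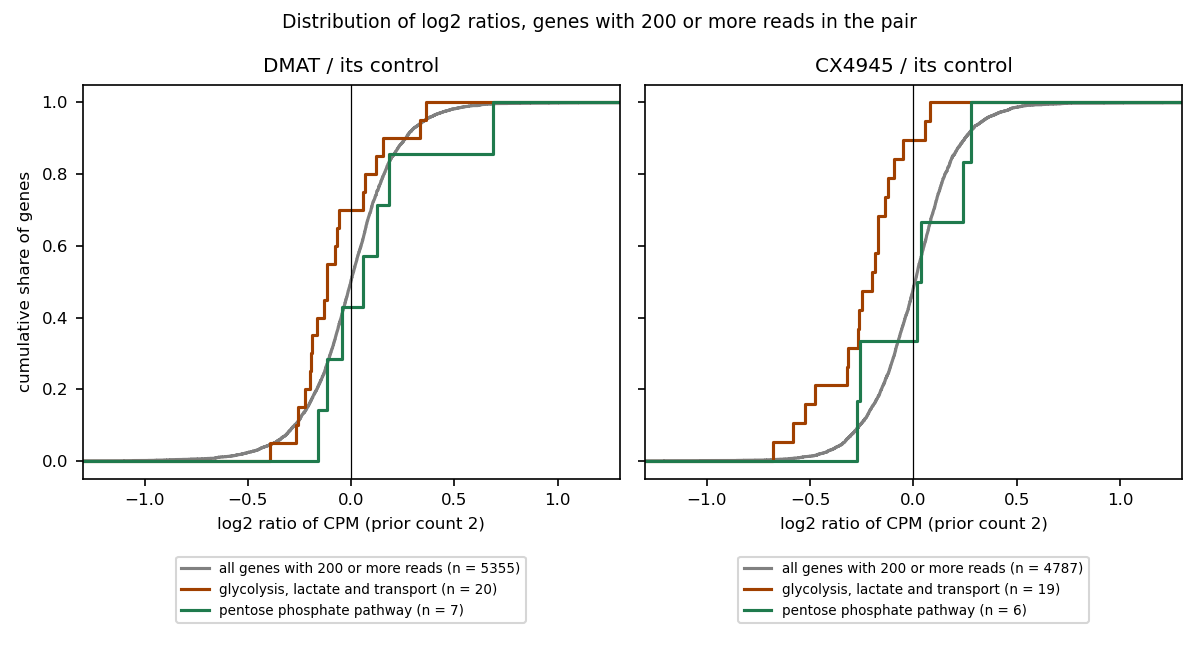
Cumulative share of genes by log2 ratio within each pair, for genes with at least 200 reads: all genes, the glycolysis, lactate and transport members, and the pentose phosphate members. Over most of its length the glycolytic curve lies left of the curve of all genes, by more with CX4945, and the pentose phosphate curve crosses that of all genes with CX4945 and lies mostly to its right with DMAT; some of all genes lie outside the axis.

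In the pentose phosphate pathway 0 of 7 genes passed the joint test, and the median log2 ratio was 0.06 for DMAT and 0.02 for CX4945. Between the controls the median was -0.10, and 6 of 7 were lower in the one for CX4945 (49.8% of all genes). The oxidative branch begins with G6pdx, glucose-phosphate dehydrogenase, the source of NADPH. It had 90.4 CPM in the control for DMAT, 94.3 with DMAT, 86.7 in the control for CX4945 and 72.2 with CX4945, with intervals that included 1, and its log2 ratio with CX4945 was -0.26 in total and 0.11 in unique reads (34.9% unique). Pgls, the lactonase of the next step, had the highest ratio of the members with DMAT: 40 CPM in the control and 64.8 with DMAT, a ratio of 1.62 (1.27 to 2.08), against 45.1 and 39.8 CPM in the CX4945 pair, a ratio of 0.883 (0.651 to 1.19). The DMAT library was above the other 3, which lay close together, and the joint value of 0.30 ± 0.19 did not pass (adjusted p = 0.81). Pgd, the second dehydrogenase, had 251, 243, 220 and 182 CPM and was 1.21-fold lower with CX4945 (1.05 to 1.39). The control for CX4945 was itself 1.14-fold below that for DMAT (1.02 to 1.28).

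In the non-oxidative branch Tkt, transketolase, was the most abundant gene, at 81.9 to 100 RPKM. It had 578 and 656 CPM in the DMAT pair, a ratio of 1.13 (1.06 to 1.22), and 535 and 549 CPM in the CX4945 pair, a ratio of 1.03 (0.946 to 1.11); the joint value was 0.11 ± 0.08 (adjusted p = 0.88, all reads unique). Between the controls Tkt was lower in the one for CX4945, at a ratio of 0.925 (0.858 to 0.998). Taldo1, transaldolase, had 130, 120, 127 and 150 CPM, and Rpia, the isomerase that makes ribose-phosphate, had 73.5, 65.6, 68.3 and 83 CPM. Both were slightly lower with DMAT, with intervals that included 1, and slightly higher with CX4945. With CX4945 the interval of Taldo1 lay just above 1 (ratio 1.18), and that of Rpia included 1 (0.972 to 1.52). Rpe, the epimerase, had 67 and 73 CPM in the DMAT pair and 49 and 49.6 in the CX4945 pair, so the experiments differed and the treatments did not by more than counting error.

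Other genes of glucose metabolism were counted for comparison. Of 63 found, 41 entered the joint fit, 0 fell and 0 rose (edgeR quasi-likelihood), and 2 were lower and 0 higher at an unadjusted p under 0.05, where 4.13% of all genes were lower; DESeq2 with the block also called 0. They include the pyruvate dehydrogenase subunits, glycogen enzymes and the serine branch, and 28 of 41 were lower with DMAT and 22 of 39 with CX4945, where 49.2% and 49.4% of all genes were, and 25 of 41 between the controls (49.8% of all genes). Of 20 enzymes of the TCA cycle, all tested, 0 fell and 0 rose (edgeR quasi-likelihood; 1 was lower at an unadjusted p under 0.05), and 6 were lower with DMAT and 12 with CX4945. Among 20 regulators of glycolytic genes 19 were tested and Egln3 fell, the oxygen-sensing hydroxylase gene, itself induced by HIF, that marks HIF for degradation. It had 124 CPM in the control for DMAT, 64.8 with DMAT, 99.4 in the control for CX4945 and 75.6 with CX4945, both inhibitor libraries below both controls (joint log2 fold change -0.68 ± 0.15, edgeR quasi-likelihood, adjusted p = 0.0288). Its call held in 5 of 11 alternative fits, with values from -0.82 to -0.51, and was lost with DESeq2 (adjusted p = 1), without the block (0.999) and in each fit that left out a library. Hif1a, the oxygen-regulated HIF-1 subunit, had 472, 533, 388 and 312 CPM (adjusted p = 0.962, with 25% of reads unique), and Myc had 407, 470, 474 and 415 (adjusted p = 0.995).

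Genes of mitosis, a marker list, were lower in most comparisons too. All 12 were lower with DMAT and 11 of 12 with CX4945, where 49.2% and 49.4% of all genes were, and 11 of 12 were lower between the controls (49.8%). In the joint fit 1 fell, Ccnb1 (adjusted p = 0.0213; 0.384% of all genes fell), and their summed level was 3426 CPM in the control for DMAT, 2645 with DMAT, 2747 in the control for CX4945 and 2433 with CX4945. The sum was lower in the control for CX4945 than in that for DMAT, as it was for the members. The Th17 markers, 8 genes, were all lower with both inhibitors (25.7% of all genes), with medians of -1.61 with DMAT and -1.20 with CX4945. Of these 5 fell in the joint fit, Il17a, Il17f, Il22, Il23r and Il1r1, and the summed level was 909 and 396 CPM in the DMAT pair and 749 and 397 CPM in the CX4945 pair. The summed level of 8 T cell markers lay between 2678 and 2828 CPM, and that of B cell, myeloid, NK and CD8 T cell markers did not exceed 4.91 CPM in any library. The part of the mitotic and Th17 genes in the result for Hk2, Tpi1 and the other members was not tested.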

How the data were processed

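RNA sequencing of 4 libraries of aTh17 cultures was analysed. The authors deposited, per the file headers, raw counts of reads per gene over its exons, as total exon reads, in which reads that fit several places also count, and as unique exon reads. Build mm9 and CASAVA 1.8.2 are named in the submitters' processing notes; the aligner, annotation and counting rule are not given in the sources used here. The titles name a control for each inhibitor, which gives the pairs. Library totals were 2772525, 2523446, 2285545 and 2056635 reads. No library repeated another (chi-square of counts per degree of freedom 2.56 to 5.63).

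TMM factors were 0.99 to 1.01. CPM ratios have exact conditional (Clopper-Pearson) 95% intervals that cover counting error only. Genes needed 20 reads in a pair. RPKM used the deposited exon length. The joint fit was edgeR 4.0.16 (R 4.3.3), glmQLFit and glmQLFTest with the pair as a block, filterByExpr, and Benjamini-Hochberg adjustment; its SE is the absolute log2 fold change divided by the square root of F. DESeq2 1.42.0, other scalings, unique reads, other filters, other controls and fits without the block or without a library were alternatives. As a check of the pairing, the control for CX4945 minus that for DMAT was set against CX4945 minus DMAT over 6969 genes of 200 or more reads (Pearson's r = 0.425 across genes, which are not independent replicates). All members are accounted for. By rule, other glucose metabolism, TCA cycle and regulator genes are named where the joint fit called them or where they differed 2-fold the same way in both pairs, and markers are given as list totals. Hif1a, Myc and single markers were named after their values were seen. The members, lists, fold thresholds and tests were chosen with earlier results of these data known.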

Additional observations from a re-analysis of the deposited data

Results flagged for a closer look

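In 13 members the log2 ratio had opposite signs with DMAT and with CX4945. Each side rests on 1 library against 1 control, the inhibitors also differ in dose and experiment, and the difference was not tested. The log2 ratio with DMAT minus that with CX4945 was 0.86 for Pgls, 0.79 for Pfkm, 0.68 for Pfkfb3, 0.42 for Pdk1, 0.38 for Pgm2, 0.33 for Pgam1, 0.32 for G6pdx and 0.31 for Pdk3. It was -1.04 for Eno2, -0.44 for Rpia, -0.35 for Taldo1, -0.24 for Slc2a3 and -0.12 for Gapdh. Pfkfb3 was the member of these whose counting intervals excluded 1 on both sides.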

How the results depend on the processing

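The joint fit called 2 members, 4 with total-count scaling, and 0 without the replicate block and with DESeq2; leaving out each library in turn, without the block, gave 0 to 3. A fit that leaves out a library has 1 sample in an arm, assumed to vary like the others. DESeq2 size factors, unique reads and both other filters added Eno1 to Hk2 and Tpi1, and total-count scaling Eno1 and Pgk1. Over all genes 54 were called (17 rose, 37 fell), 84 with DESeq2 size factors (35 and 49), 108 with unique reads (45 and 63), 101 under total-count scaling (40 and 61), 88 with 20 reads in each pair (35 and 53), 3 with DESeq2 and 1 without the block. Other glucose metabolism genes were called 0 times in every fit run. The pairing comes from the titles, and no replicate numbers are given.

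For the ratios within a pair, the choice of control changed directions. Against the other inhibitor's control 8 members were lower with both inhibitors, in place of 14, and the log2 ratios with DMAT became 0.20 for Tpi1 and 0.02 for Eno1. The log2 ratio of the members' share of reads with DMAT was -0.11, against 0.01 with the other control, -0.05 with the mean of both controls and 0.02 with equal weight for each member. With CX4945 it was -0.23, against -0.35, -0.29 and -0.15, and -0.20 with unique reads. The cause was not tested. Members with few reads, such as Pfkfb4, Eno2 and Eno3, are limited by depth.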
